A study of Homo sapiens with 12 samples.

Results

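The genes described here are 10 core regulators of the step by which a cell leaves G1 phase and starts to copy its DNA. They are the 3 D-type cyclins CCND1, CCND2 and CCND3, the kinases CDK4 and CDK6, the INK4 inhibitors CDKN2A, CDKN2B and CDKN2C, and the CIP/KIP inhibitors CDKN1B and CDKN1C. Each was found by its gene name in the deposited count table, which lists 60605 genes, 40591 of them with a name, and each of the 10 names matched 1 gene. The genes were chosen by pathway with their CPM in the 4 groups already seen, so their differences between groups are a description. No p-value is given for them, and the count of members called by the fit over all genes is printed beside the share or number of all genes called.

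D-type cyclins are made when cells receive growth signals. They bind CDK4 or CDK6, and the active kinases phosphorylate the retinoblastoma protein RB1 and its relatives, which releases E2F transcription factors and switches on genes for DNA replication. The INK4 proteins p16, p15 and p18, the products of CDKN2A, CDKN2B and CDKN2C, bind CDK4 and CDK6 and keep the cyclin off, while the CIP/KIP proteins p27 and p57, the products of CDKN1B and CDKN1C, bind assembled cyclin-kinase pairs. The retinal pigment epithelium, the pigmented layer behind the photoreceptors, hardly divides in the adult eye, whereas cell lines derived from it divide in culture.

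All libraries were bulk poly(A) RNA-seq of ARPE-19, an established human retinal pigment epithelium line. Stable lines carried an open reading frame (ORF) for the green fluorescent protein (GFP), for the glutathione transferase GSTA4, or for OSK, read here as the reprogramming factors POU5F1 (OCT4), SOX2 and KLF4, and were collected after 4 days of ORF expression. A further group labelled WT has no ORF named in its labels. Each of the 4 groups had 3 libraries, 12 in all. The labels do not say whether libraries of a group were separate cultures, or whether a line was 1 clone, so p-values measure the spread between these libraries, which may be technical, and an ORF cannot be told apart from the line that carries it.

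The libraries held 12630675 to 17045454 assigned reads (median 14733172.5). Levels are in CPM, a gene's share of a library's reads scaled to a common library size, after TMM scaling by the bulk of the genes, and a value at 3 or fewer reads is treated as near 0. GSTA4 averaged 415.8 CPM in the GSTA4 line and 5.47 to 20.2 CPM elsewhere. In the OSK line POU5F1 averaged 779.1 CPM, SOX2 628.1 CPM and KLF4 927.8 CPM. In GFP replicate 1, 27349 named genes had at least 1 read, compared with 19488 to 22073 elsewhere. Summed over 12 pigment epithelium markers, the level was 1247 to 1323 CPM in OSK, 1535 to 1599 in GSTA4, 2015 to 2311 in GFP and 2284 to 2572 in WT. The defining markers RPE65 (0 to 10 reads, with 9, 10 and 3 in OSK) and TTR (0 to 4 reads) were low. KRT8 and KRT18, keratins of many epithelia, carried much of that sum (1247 and 432 CPM in WT, 843 and 314 CPM in GFP). Some other markers of the tissue had another order. In WT, RLBP1 was 27.8% of the GFP mean, BEST1 34.2%, TYR 32.2%, LRAT 27%, SERPINF1 37.5% and PMEL 68.6%. MITF and OTX2 in WT were closer to GFP, at 82.95% and 96.9% of its mean. LRAT in GSTA4 was 369% of GFP. Markers of pluripotent cells other than the 3 factors summed to at most 2.13 CPM in any library, and all 8 were at 3 or fewer reads in every OSK library. Summed fibroblast markers (8 genes) ran from 709 to 787 CPM in WT and GFP, 529 to 558 in GSTA4 and 338 to 397 in OSK, with LUM at 0 in all groups and DCN at 3 or fewer reads in every library. Most of that sum was PDGFRB (343 to 660.0 CPM by group mean), while COL1A1 averaged 4.53 CPM in GSTA4, 20.9 in OSK, 82.6 in GFP and 122.5 in WT. Summed neural markers (8 genes) ran from 264 to 388 CPM, with SOX1, NEUROD1 and STMN2 at 3 or fewer reads in every library. Most of that sum was PAX6 (174.8 to 191.3 CPM by group mean) and MAP2 (84.5 to 180.1 CPM). The part of these marker differences in the results that follow was not tested, and in bulk RNA fewer cells of a type cannot be told apart from less RNA per cell.

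Promoter sequence was matched by symbol in a RefSeq table (GRCh38.p14), which held windows for 7 of the 10 genes (13 windows, the 250 bases before each start site). Stretches are printed for CDKN2C and CDKN2B, whose groups did not overlap, and for CDK4, which was lower in every OSK library than in any other. The first pair, from CDKN2C, is shown because these were the only matches to the E2F motif TTCCCGC (either strand) in the 13 windows. Capitals mark the match, 142 to 113 and 45 to 16 bases upstream of a RefSeq start site. In GENCODE this start lies inside CDKN2C, and all 250 bases of the window are CDKN2C exon, so the stretches are also transcribed sequence in that annotation.
CDKN2C chr1:50968564-50968593 (+): gagagcgggagGCGGGAAtgagggcgcggg
CDKN2C chr1:50968661-50968690 (+): ggcgcccggccTTCCCGCtcccgcggcgct
The motif occurred in 5.52% of all 35116 windows of this length and in 8 of 22 windows of the E2F target genes listed further on. The next pair, from CDK4, is shown for its matches to the E-box CACGTG, the sequence bound by MYC and its partners. It occurred in 6.34% of all windows and in 3 of the 13 windows here, from CDK4 and CDKN2C. Capitals mark the matches, 218 to 189 and 113 to 84 bases upstream of a RefSeq start site, in a window of which 211 of 250 bases are CDK4 exon in GENCODE.
CDK4 chr12:57752499-57752528 (-): gtCACGTGtgatagcaacagatCACGTGgc
CDK4 chr12:57752394-57752423 (-): atgggtggcggtCACGTGcccagaacgtcc
The last stretch is the CDKN2B promoter from 250 to 59 bases upstream, a part outside GENCODE exons, shown because CDKN2B had the widest gap between GSTA4 and GFP among the 10 genes. Capitals mark GC boxes (GGGCGG, either strand), the core sequence bound by SP and KLF factors. The GC box occurred in 42.6% of all windows and in 9 of the 13 windows here, from all 7 genes that have a window.
CDKN2B chr9:22009364-22009555 (-): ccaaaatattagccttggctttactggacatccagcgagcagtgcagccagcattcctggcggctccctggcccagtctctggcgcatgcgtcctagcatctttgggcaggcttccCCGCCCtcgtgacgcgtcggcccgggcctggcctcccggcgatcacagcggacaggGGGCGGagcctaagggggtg
A match describes the letters in the window and does not show that a factor binds there.

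Among the D-type cyclins, CCND1 was the one with by far the most RNA, CCND2 was close to 0 in OSK, and CCND3 was higher in OSK than in the other 3 groups. CCND1 (chr11:69641087-69654474, plus strand, GRCh38) encodes the cyclin best known as the early target of mitogen signalling. Its level was 142, 202 and 223 CPM in the WT libraries and 309, 326 and 349 CPM in the GFP libraries. It was 265, 267 and 274 CPM in GSTA4 and 283, 297 and 283 CPM in OSK. The groups did not overlap and stood in the order WT, GSTA4, OSK, GFP, with WT at 189 ± 41.9 and GFP at 328 ± 19.9 CPM (SD, n = 3). WT replicate 1 was the lowest of the 12 libraries. Fitted log2 fold changes were 0.80 (SE 0.103) for GFP against WT, -0.29 (SE 0.102) for GSTA4 against GFP and -0.19 (SE 0.102) for OSK against GFP. Against WT, GSTA4 was higher by 0.51, the opposite sign to its difference from GFP. OSK and GSTA4 differed by 0.10 (SE 0.102), about 1 standard error of the fit.

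CCND2 (chr12:4273772-4305350, plus strand) encodes the cyclin prominent in stem and progenitor cells. It had 24, 40 and 48 reads in WT, 51, 28 and 49 in GFP, and 65, 69 and 51 in GSTA4. The OSK libraries had 1, 1 and 3 reads. In CPM these were means of 3.07 ± 0.962 in GFP, 2.42 ± 0.805 in WT, 4.27 ± 0.844 in GSTA4 and 0.115 ± 0.0831 in OSK (SD, n = 3). OSK stood below every other library, and the other 3 groups overlapped with their neighbours in the order. With 3 reads per OSK library taken as the floor (a mean of 0.205 CPM), CCND2 in OSK was at least 15-fold lower than in GFP, at least 20.9-fold lower than in GSTA4 and at least 11.8-fold lower than in WT. The difference between GSTA4 and GFP was 0.47 (SE 0.304) on the log2 scale, with 1 GSTA4 library below the highest GFP library.

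CCND3 (chr6:41934933-42050357, minus strand) encodes the D-type cyclin expressed in many tissues. It measured 23.3, 20.3 and 22.4 CPM in WT, 21.8, 21.5 and 21.8 CPM in GFP, and 22.9, 20.2 and 19.6 CPM in GSTA4. The OSK libraries measured 38.9, 35.8 and 33.7 CPM. The lowest OSK library was above the highest of the other 9, while WT, GFP and GSTA4 overlapped. OSK was higher by a log2 fold change of 0.74 (SE 0.0917) against GFP and 0.79 (SE 0.0917) against GSTA4. GSTA4 against GFP gave -0.05 (SE 0.0952), within the spread of the libraries.

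**Figure D1:**
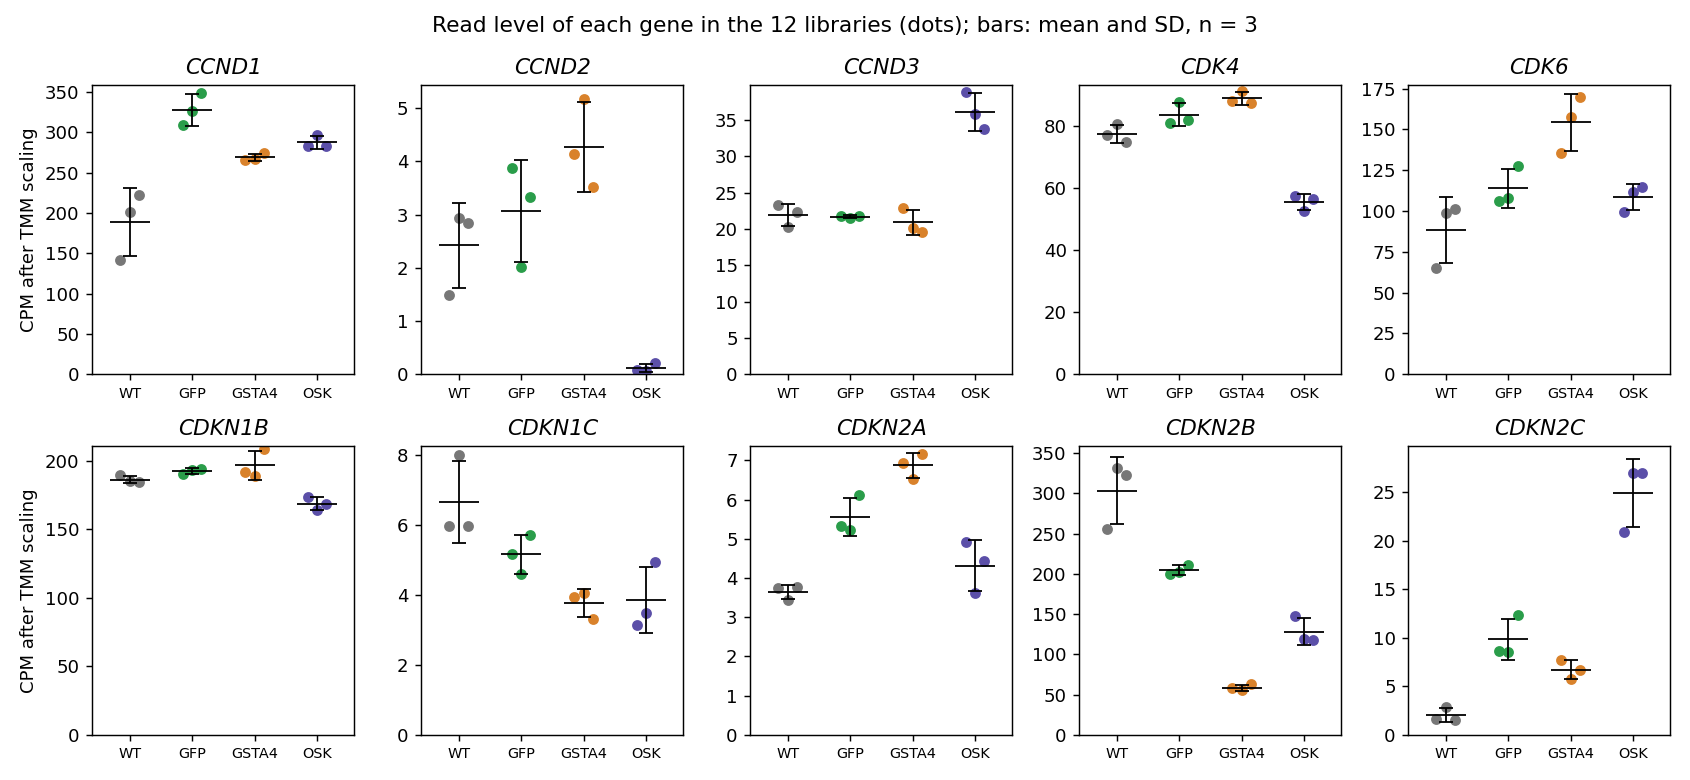
Levels of the 10 genes in CPM after TMM scaling on linear axes from 0, 1 panel per gene, with dots for the 12 libraries and bars for the mean and SD of each group (n = 3). CCND2 in OSK (0.115 CPM), CDKN2B in GSTA4 (58.75 CPM) and CDKN2C in WT (2.03 CPM) lie below the other groups.

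The catalytic partners differed in which line stood apart, CDK4 being lower in OSK and CDK6 higher in GSTA4. CDK4 (chr12:57747727-57756013, minus strand) measured 77.0, 80.6 and 74.9 CPM in WT and 80.8, 87.7 and 82.0 CPM in GFP. It measured 87.9, 91.3 and 87.4 CPM in GSTA4 and 57.5, 52.6 and 56.5 CPM in OSK. Every OSK library was below every other library, and GFP overlapped with GSTA4 by 1 library. On the log2 scale the difference was -0.59 (SE 0.0641) for OSK against GFP and -0.68 (SE 0.0639) against GSTA4, and 0.09 (SE 0.0626) for GSTA4 against GFP. CDK4 shares 1369 exon bases (43.2% of its own) with TSPAN31 on the opposite strand, and the strand setting of the counting is not given in the sources used here, so reads from the shared bases cannot be assigned. TSPAN31, a tetraspanin gene, averaged 37.0 CPM in GFP, 34.2 in WT, 39.99 in GSTA4 and 43.0 in OSK, higher in OSK where CDK4 was lower.

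CDK6 (chr7:92604921-92836594, minus strand) encodes the kinase that shares the D-type cyclins with CDK4. It measured 65.0, 98.6 and 101.2 CPM in WT, 106, 108 and 127 CPM in GFP, 135, 158 and 170 CPM in GSTA4, and 99.7, 112 and 115 CPM in OSK. Every GSTA4 library exceeded every other library, and OSK overlapped with both WT and GFP. Fitted log2 fold changes were 0.44 (SE 0.12) for GSTA4 against GFP, -0.50 (SE 0.12) for OSK against GSTA4 and -0.07 (SE 0.121) for OSK against GFP. WT was lower than GFP with a log2 difference of 0.37 (SE 0.122), which became 0.18 without WT replicate 1, the lowest library.

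The INK4 inhibitors differed between the groups, and in different directions. CDKN2B was lowest in GSTA4, CDKN2C highest in OSK and CDKN2A, by a smaller margin, highest in GSTA4. CDKN2B (chr9:22002903-22009363, minus strand) encodes p15, an inhibitor best known as a target of TGF-beta signalling in epithelial cells. It measured 256, 331 and 323 CPM in WT and 199.5, 202 and 211 CPM in GFP. It measured 58.0, 55.5 and 62.8 CPM in GSTA4 and 148, 119 and 117.7 CPM in OSK. No pair of groups overlapped, and the order was GSTA4, OSK, GFP, WT, with WT spread most widely (303 ± 41.3 CPM, SD, n = 3). The GSTA4 mean of 58.75 ± 3.67 CPM was 28.8% of the GFP mean of 204 ± 6.26 CPM, a log2 fold change of -1.80 (SE 0.0956). The OSK mean of 128 ± 16.9 CPM was 62.7% of the GFP mean, a log2 fold change of -0.67 (SE 0.091). GFP itself was below WT by a log2 fold change of -0.57 (SE 0.0892), and OSK stood 1.12 (SE 0.0956) above GSTA4.

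CDKN2C (chr1:50960745-50974633, plus strand) encodes p18, the INK4 protein often found in dividing and differentiating cells. It measured 1.68, 2.86 and 1.53 CPM in WT and 8.67, 8.53 and 12.3 CPM in GFP. It measured 7.69, 5.78 and 6.67 CPM in GSTA4 and 20.9, 26.9 and 26.9 CPM in OSK. The groups stood in the order WT, GSTA4, GFP, OSK without overlap, with means of 2.03 ± 0.729, 6.71 ± 0.955, 9.83 ± 2.14 and 24.9 ± 3.51 CPM (SD, n = 3). The log2 fold change was 2.31 (SE 0.225) for GFP against WT and 1.34 (SE 0.172) for OSK against GFP, and 3.64 for OSK against WT. Against WT, GSTA4 was higher by 1.76, and against GFP it gave -0.55 (SE 0.19), with values from -0.36 to -0.54 when GFP replicate 3 or GSTA4 replicate 2 or 3 was left out. The E2F motif matches printed for CDKN2C lie in 1 of its windows, and its other windows, including the one at its GENCODE start, held 0 matches. The part of those letters in its levels was not tested.

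CDKN2A (chr9:21967753-21995301, minus strand) encodes p16, the inhibitor associated with senescence, and also ARF, which acts on p53 rather than on the kinases. Gene-level counts do not separate these transcripts. The level was low, at 3.73, 3.45 and 3.78 CPM in WT, 5.32, 5.23 and 6.11 CPM in GFP, 6.93, 6.53 and 7.16 CPM in GSTA4, and 4.91, 3.61 and 4.43 CPM in OSK. GSTA4 was above every other library, GFP was above WT and OSK, and OSK overlapped with WT. The log2 fold change was 0.31 (SE 0.175) for GSTA4 against GFP, -0.37 (SE 0.183) for OSK against GFP, 0.60 (SE 0.185) for GFP against WT and -0.67 (SE 0.179) for OSK against GSTA4. CDKN2A and CDKN2B are neighbours on chromosome 9, and in GSTA4 CDKN2A had its highest level and CDKN2B its lowest. In GSTA4 against GFP the log2 fold change of CDKN2A was small beside that of CDKN2B (0.31 and -1.80). CDKN2A shares 341 exon bases (7.88% of its own) with CDKN2B-AS1, the long noncoding RNA of that locus.

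**Figure D2:**
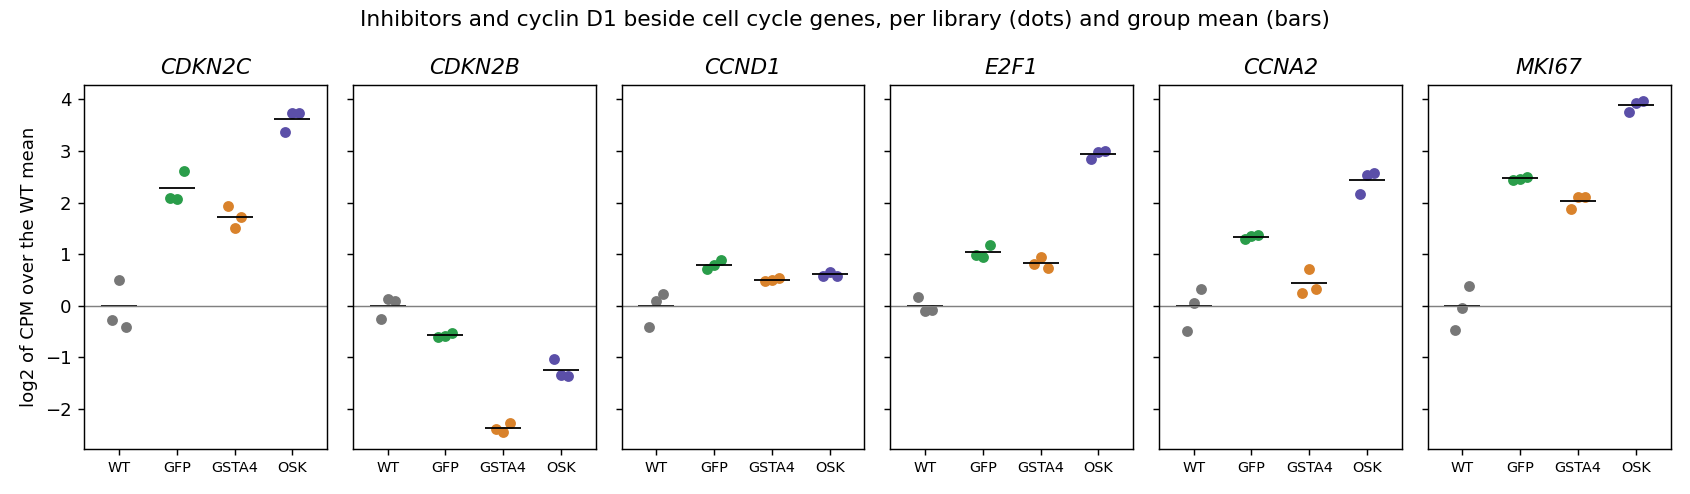
CDKN2C, CDKN2B and CCND1 beside the cell cycle genes E2F1, CCNA2 and MKI67, as log2 of each library's CPM over the WT mean, with dots for libraries and bars for group means. CDKN2C and MKI67 were lowest in WT (2.03 and 10.45 CPM) and highest in OSK (24.9 and 154 CPM), and CDKN2B was lowest in GSTA4 (58.75 CPM).

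Of the CIP/KIP inhibitors, CDKN1B varied little and CDKN1C was highest in WT. CDKN1B (chr12:12715058-12722371, plus strand) encodes p27, which restrains cyclin E with CDK2 and also helps cyclin D assemble with its kinases. It measured 189, 185 and 184 CPM in WT, 190.0, 193 and 194 CPM in GFP, and 192, 189 and 209 CPM in GSTA4. OSK measured 173, 164 and 168 CPM, with every library below the other 9. Its log2 fold change was -0.19 (SE 0.0553) for OSK against GFP and -0.22 (SE 0.0552) against GSTA4, a small difference with small spread. With library sizes alone as the scaling, OSK against GFP was -0.26.

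CDKN1C (chr11:2883213-2885773, minus strand) encodes p57, an imprinted inhibitor linked to exit from the cell cycle in development. It measured 5.97, 8.004 and 5.96 CPM in WT and 5.17, 4.59 and 5.71 CPM in GFP. It measured 3.94, 4.05 and 3.30 CPM in GSTA4 and 3.13, 3.48 and 4.93 CPM in OSK. GSTA4 was below GFP in every library, while OSK overlapped with both. Every WT library was above every library of the other 3 groups, with a log2 fold change of -0.81 (SE 0.209) for GSTA4 against WT and -0.78 (SE 0.208) for OSK against WT. Log2 fold changes were -0.45 (SE 0.215) for GSTA4 against GFP and -0.42 (SE 0.215) for OSK against GFP, both near 2 standard errors.

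The members past an adjusted p of 0.05 in the fit over all genes ("called") were counted beside the share of all 15179 tested genes past it, and since the members were chosen with these contrasts known, nothing is read from the counts. All 10 passed the filter on low counts, and all 10 were called for any difference among the 4 groups, beside 66.9% of all genes. In GSTA4 against GFP, 4 of 10 were called beside 29.2% of all genes. CDK6 was the 1 called higher (14.7% of all genes), and CCND1, CDKN2B and CDKN2C were the 3 called lower (14.6%). In OSK against GFP, 6 of 10 were called beside 45.9%. CCND3 and CDKN2C were called higher (23.1%), and CCND2, CDK4, CDKN1B and CDKN2B lower (22.8%). Over all genes this was 3508 higher and 3454 lower, and 2761 higher and 4180 lower with library sizes alone as the scaling. In GFP against WT, 5 of 10 were called beside 22.2%. CCND1, CDK6, CDKN2A and CDKN2C were called higher (11%), and CDKN2B lower (11.2%). In OSK against GSTA4, 8 of 10 were called beside 47.8%. CCND3, CDKN2B and CDKN2C were called higher (24.1%), and CCND2, CDK4, CDK6, CDKN1B and CDKN2A lower (23.8%).

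Counting groups whose libraries did not overlap gave 6 of 10 members in GSTA4 against GFP (42.3% of all genes), 8 in OSK against GFP (54.7%) and 9 in OSK against GSTA4 (58%), while GFP against WT gave 8 (34.6%). With WT as the control, 8 members were called in the GSTA4 line (38.6% of all genes), 6 higher (19.7%) and 2 lower (19%), and 8 did not overlap (49%). In OSK against WT, 9 were called (45.4%), 4 higher (22.7%) and 5 lower (22.7%), and 8 did not overlap (53.5%). These comparisons share libraries and are not independent.

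Single libraries decided some calls. Of the 4 calls in GSTA4 against GFP, CDKN2B was the one kept when any single library was left out. CCND1 lost its call without GFP replicate 2 or 3, OSK replicate 2 or any 1 GSTA4 library. CDK6 lost it without GFP replicate 1 or GSTA4 replicate 3, and CDKN2C without GFP replicate 3 or GSTA4 replicate 2 or 3. In GFP against WT, CDK6 lost its call without WT replicate 1, GFP replicate 2 or 3 or GSTA4 replicate 2, and in DESeq2. CDKN2A lost it without WT replicate 1 or 2 or GFP replicate 3, and with no filter on low counts. In OSK against GFP, CDKN1B lost its call with no filter, and CCND1 was called without WT replicate 1 (-0.19), with library sizes alone (-0.26) or with the 6 compared libraries (-0.20), and CDKN1C without OSK replicate 3 (-0.63).

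**Figure D3:**
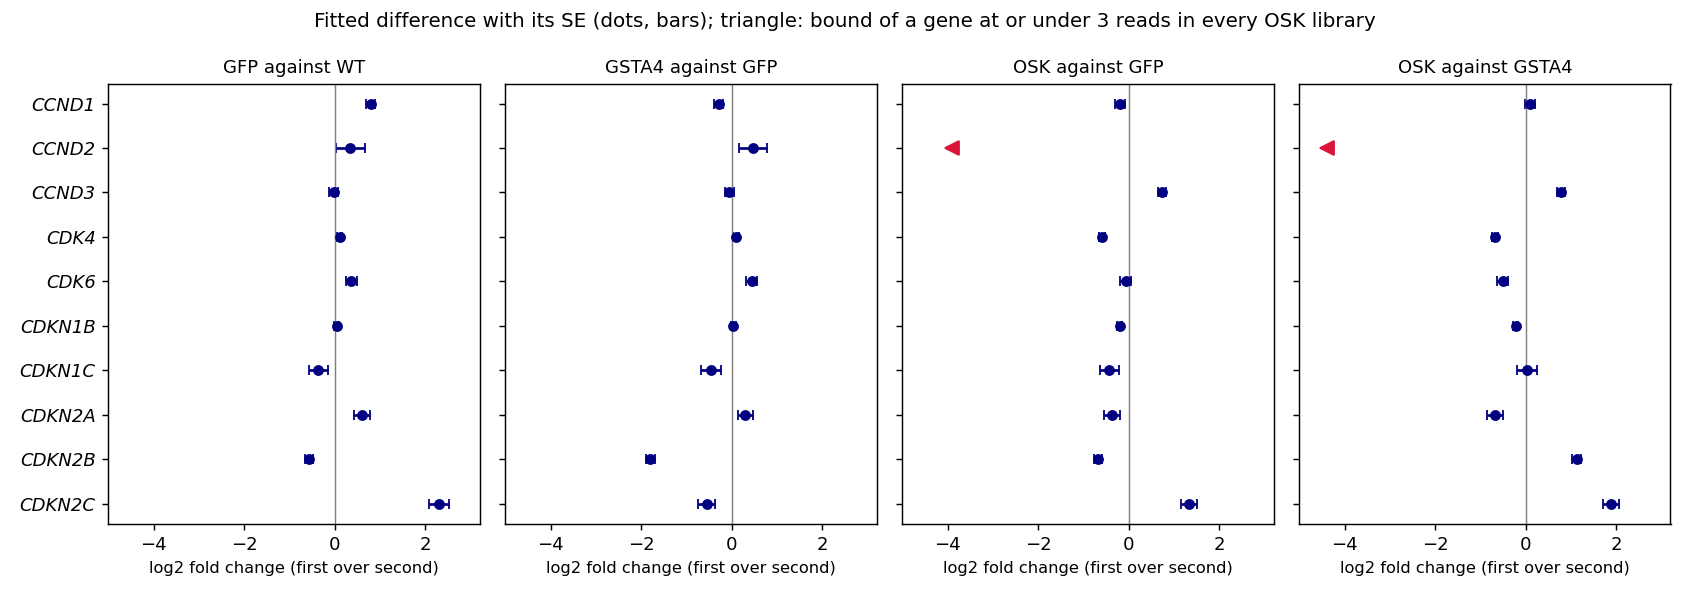
Fitted log2 fold changes of the 10 genes in 4 comparisons, with dots for the estimates and bars of 1 standard error, and triangles for the bound of CCND2, which had 3 or fewer reads in every OSK library. Among the dots, CDKN2B lies furthest below 0 in GSTA4 against GFP (-1.80) and CDKN2C furthest above 0 in GFP against WT (2.31).

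Within each family, levels were compared per kilobase of exon, the scale on which different genes can be set side by side. CCND1 made up 90.2% of the D-type cyclin RNA per kilobase in WT, 90.5% in OSK, 93.0% in GSTA4 and 94.2% in GFP. CCND3 made up 5.20% in GFP, 9.07% in WT, 6.02% in GSTA4 and 9.47% in OSK. The summed level of the 3 cyclins was 72.05 CPM per kilobase in GFP, 43.2 in WT, 59.9 in GSTA4 and 65.8 in OSK, so the sum followed CCND1. CDK4 was 77.4% ± 4.18 of the CDK4 and CDK6 pair in WT, 74.0% ± 2.33 of it in GFP, 69.1% ± 2.49 in GSTA4 and 66.4% ± 2.35 in OSK (SD, n = 3). The shift toward CDK6 came with a higher CDK6 level in GSTA4 and a lower CDK4 level in OSK. Counting only the exon bases CDK4 does not share with TSPAN31 as its length raised these shares to 85.65% in WT, to 83.2% in GFP, to 79.6% in GSTA4 and to 77.55% in OSK.

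Of the INK4 genes, 3 were summed (CDKN2A, CDKN2B and CDKN2C), without CDKN2D, which averaged 5.44 to 8.34 CPM. Most of this sum came from CDKN2B in every group, at 78.6% per kilobase in OSK, 80.0% in GSTA4, 92.25% in GFP and 98.1% in WT. The remainder differed in kind. CDKN2C made up 5.40% in GFP, 0.798% in WT, 11.2% in GSTA4 and 18.9% in OSK. CDKN2A made up 8.78% in GSTA4, 1.125% in WT, 2.35% in GFP and 2.48% in OSK. The larger shares of both in GSTA4 than in GFP stood beside a smaller sum. In CPM per kilobase, CDKN2C was 2.02 in GSTA4 and 2.96 in GFP, and CDKN2A was 1.59 and 1.28. The summed level of these 3 genes was 54.6 ± 2.28 CPM per kilobase in GFP, 76.2 ± 10.3 in WT, 18.1 ± 1.10 in GSTA4 and 40.1 ± 3.22 in OSK (SD, n = 3). GSTA4 had the lowest sum of these 3 genes among the 4 groups, following CDKN2B. CDKN1B made up 96.1% to 97.9% of the CDKN1B and CDKN1C sum.

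**Figure D4:**
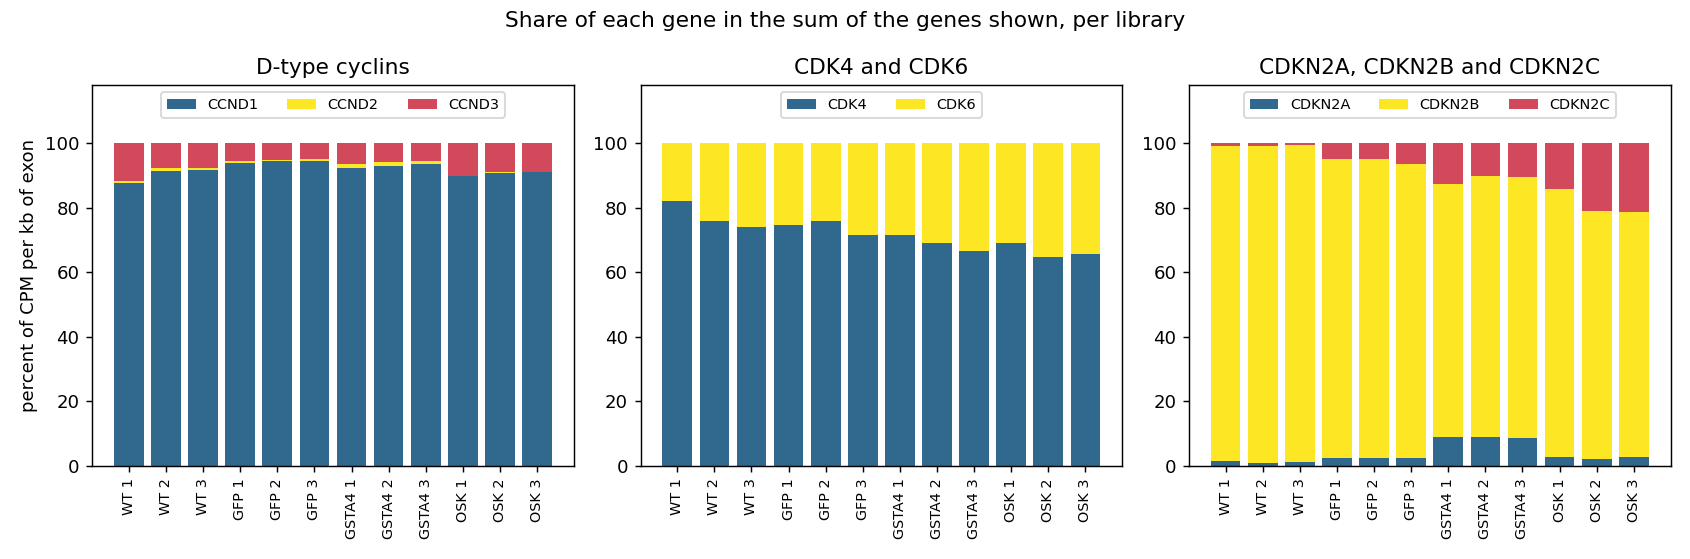
Share of each gene in the summed CPM per kilobase of exon of the genes in its panel, in percent, as 1 stacked bar for each of the 12 libraries. Averaged over 3 libraries, CDKN2B was 98.1% of the sum of CDKN2A, CDKN2B and CDKN2C in WT and 78.6% in OSK, and CDK4 was 77.4% and 66.4% of the kinase pair.

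The other genes of the pathway were tested with edgeR's quasi-likelihood test, with Benjamini-Hochberg adjustment over all 15179 genes, and each list is set beside the median log2 fold change of all genes, which lay between -0.02 and 0.01. Downstream of the kinases, OSK had more RNA of E2F target genes than GFP. Of 19 targets, most of which serve DNA replication and nucleotide supply, 14 rose and 0 fell in OSK against GFP (median 0.63). Over all genes, 23.1% were called higher there. Of 8 proliferation markers, 8 rose (median 1.14). The lists overlap, since the targets include E2F1, also counted with the E2F genes, and CCNE1 and CCNE2, also counted with the cyclin E genes. E2F1, the factor that RB1 restrains, rose from 9.64 to 36.0 CPM, 1.90 higher on the log2 scale (SE 0.113, adjusted p = 2.2e-11). TK1, a thymidine kinase, rose by 1.54 (adjusted p = 2.63e-08), and MCM5, a subunit of the replicative helicase, by 0.95 (adjusted p = 3.59e-07). MKI67, the gene of the Ki-67 antigen, rose from 57.8 to 154 CPM (log2 fold change 1.41, adjusted p = 1.14e-09), with FOXM1 and CCNB1 rising by 1.38 and 1.02. These increases stood beside lower CCND2, CDK4, CDKN1B and CDKN2B and higher CCND3 and CDKN2C in the same line, and the part of proliferation in the members' values was not tested.

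The same lists differed little or went the other way in GSTA4 against GFP. Of the 19 E2F targets, MCM7 rose by 0.31 (adjusted p = 0.000354) and MCM6 changed by -0.27 (adjusted p = 0.0329), and the median was -0.05. Of the 8 proliferation markers, 6 fell and 0 rose (median -0.42), though 3 fell without GSTA4 replicate 2. Over all genes, 14.6% were called lower. Among the markers, TOP2A, a DNA topoisomerase, changed by -0.57 (adjusted p = 0.000764), BUB1, a mitotic checkpoint kinase, by -0.56 (adjusted p = 0.00337) and MKI67 by -0.44 (adjusted p = 0.0063). CCNA2, the S-phase cyclin, changed by -0.90 (SE 0.156, adjusted p = 0.000167) and its kinase CDK2 by -0.55 (SE 0.106, adjusted p = 0.000504). Lower CDKN2B in GSTA4 than in GFP stood beside lower levels of these cycle genes. Against WT, CDKN2B in GSTA4 was also lower (-2.37), while 13 of 19 E2F targets rose and 0 fell (median 0.63). Of the 8 proliferation markers, 8 rose against WT (median 1.32), where 19.7% of all genes were called higher. The part of the cycle genes in the members' values was not tested.

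In GFP against WT, 14 of the 19 E2F targets rose and 1 fell (median 0.92), beside 11% and 11.2% of all genes. There 8 of 8 proliferation markers rose (median 1.76). RRM2, a subunit of ribonucleotide reductase, rose by 2.58 (adjusted p = 2.55e-08) and CDC45, a helicase cofactor, by 2.61 (adjusted p = 6.38e-06). MKI67 went from 10.45 to 57.8 CPM, a log2 fold change of 2.46 (adjusted p = 2.55e-10), and TOP2A and BUB1 rose by 2.41 and 2.53. In OSK against GSTA4, 14 of 19 targets rose and 1 fell (median 0.61), beside 24.1% and 23.8% of all genes. There 8 of 8 markers rose (median 1.68). E2F1 was up by 2.11 (adjusted p = 3.44e-12) and CCNA2 by 1.99 (adjusted p = 5.86e-10). The group means of CDKN2C and MKI67 had the same order, WT, GSTA4, GFP, OSK.

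Of the 5 tested genes of cyclin E, cyclin A, CDK2 and the activating phosphatase CDC25A, 0 rose and 2 fell in GSTA4 against GFP (29.2% of all genes called). In OSK against GFP 1 rose (CCNA2, by 1.09, adjusted p = 2.03e-06), beside 45.9% of all genes called. In GFP against WT 2 rose (CCNA2 by 1.34 and CDC25A by 0.90), beside 22.2% of all genes called. Of 13 pocket protein, E2F and DP genes, 1 rose and 1 fell in GSTA4 against GFP, and 5 rose and 2 fell in OSK against GFP, beside 29.2% and 45.9% of all genes called. In the first of these TFDP1, a partner of the E2F factors, rose by 0.27 (adjusted p = 0.00366), and E2F8, a repressive E2F, went from 0.847 to 0.224 CPM (adjusted p = 0.0241). RB1 itself did not pass the test in any of the 4 comparisons, with log2 fold changes of 0.01 to 0.05. In OSK against GFP, E2F2 rose by 1.12 (adjusted p = 0.00127) and RBL2, the pocket protein p130, by 0.25 (adjusted p = 0.00146).

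Of 16 genes that activate the kinases or turn the cyclins and inhibitors over, 4 rose and 1 fell in GSTA4 against GFP, and 3 rose and 4 fell in OSK against GFP. These counts, 5 and 7 of 16, lay near the shares of all genes called, 29.2% and 45.9%. In GSTA4 against GFP, the kinase chaperone CDC37 rose by 0.33 (adjusted p = 0.00284), FBXO31, an F-box protein that targets cyclin D1, by 0.27 (adjusted p = 0.0142) and SKP2, the F-box protein that targets p27, by 0.34 (adjusted p = 0.0184). CDC37 averaged 202.2 CPM in GSTA4, 201.6 in WT and 161 in GFP, and FBXO31 50.9, 48.9 and 42.2 CPM. For CDC37 and FBXO31, GSTA4 was near WT and GFP was lower. SKP2 had another order, at 27.85 CPM in GSTA4, 21.96 in GFP and 13.08 in WT. The count of 5 called genes in GSTA4 against GFP was 1 without GFP replicate 2 and 2 without GSTA4 replicate 2. In OSK, CKS1B, the cofactor of SKP2, rose by 0.91 (adjusted p = 3.46e-06), USP2, a deubiquitinase that stabilises cyclin D1, changed by -1.03 (adjusted p = 1.42e-07) and CDK7, the CDK-activating kinase, by -0.50 (adjusted p = 0.000226). In GFP against WT 3 of the 16 rose and 2 fell, beside 22.2% of all genes called. CDK7 was up by 0.68 (adjusted p = 4.38e-05) and SKP2 by 0.75 (adjusted p = 8.13e-05), and CDC37 changed by -0.32 (adjusted p = 0.00497).

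Among the other inhibitors, CDKN1A, which encodes the p53 target p21, rose by 0.31 in GSTA4 against GFP (SE 0.0781, adjusted p = 0.00448) and changed by -0.28 in OSK against GFP (SE 0.0788, adjusted p = 0.00614). Between OSK and GSTA4 it differed by -0.59 (adjusted p = 2.28e-06), and between GFP and WT by -0.06 (adjusted p = 0.644). CDKN2D, the INK4 gene of p19, changed by -0.61 in GSTA4 against GFP (adjusted p = 0.01) and was not called in OSK against GFP (-0.35, adjusted p = 0.0941). CDKN3, a phosphatase gene that is itself cell cycle regulated, changed by -0.54 in GSTA4 (adjusted p = 0.0149) and rose by 0.77 in OSK (adjusted p = 0.000254). CDKN2B-AS1 was higher in GFP than in WT by 1.02 (adjusted p = 0.0209), with overlapping libraries (5.70, 6.67 and 2.38 CPM in GFP, 2.86, 1.84 and 2.48 CPM in WT). It was not called in GSTA4 against GFP (-0.38, adjusted p = 0.363) or in OSK against GFP (-0.66, adjusted p = 0.0784).

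Of 17 polycomb genes and their opposing demethylases, known regulators of the INK4 locus, 4 rose and 3 fell in GSTA4 against GFP, and 4 rose and 6 fell in OSK against GFP, that is 7 and 10 of 17 called beside 29.2% and 45.9% of all genes. In GSTA4 against GFP, KDM6A, a demethylase of the polycomb mark, changed by -0.58 (adjusted p = 7.2e-05), while the polycomb subunit RING1 rose by 0.47 (adjusted p = 0.000547). RING1 averaged 84.8 CPM in GSTA4, 85.05 in WT and 61.05 in GFP, so GSTA4 was level with WT. In OSK, the polycomb gene PHC1 changed by -0.82 (adjusted p = 5.94e-08) and EZH1 by -0.51 (adjusted p = 4.14e-06). In GFP against WT 2 of the 17 rose and 6 fell, beside 22.2% of all genes called. CBX2 was at -0.76 (adjusted p = 0.00236), RING1 at -0.48 (adjusted p = 0.000976) and KDM6B at -0.33 (adjusted p = 0.00287).

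For each member, up to 2 genes whose log2(CPM + 1) followed it closely over the 12 libraries are named, found among genes averaging at least 10 CPM. The 12 points fall in 4 groups, so these values mostly reflect group means and carry no test. CDKN2C ran closest to CEP55 (Pearson r 0.996) and CENPF (0.984), which act in cell division. CDKN2B ran closest to VEGFA (0.99), an angiogenic factor, and TGFBI (0.988), a matrix protein. TGFBI averaged 181 CPM in GFP, 295 in WT, 49.1 in GSTA4 and 103 in OSK, the same order as CDKN2B. CCND1 ran close to the cytokine LIF (0.942), and CCND2 closest to MAP3K1 (0.985) and FHOD3 (0.978). CCND3 ran closest to the zinc transporter SLC30A1 (0.984) and NAB1 (0.983). CDK4 ran closest to ULK2 (0.986) and PKP2 (0.98), and CDK6 to OPLAH (0.974) and the receptor kinase AXL (0.972). CDKN1B was closest to ZNF471 (0.969) and HEATR5A (0.947), CDKN1C to NAA25 (0.936) and CETN2 (0.904), and CDKN2A to TMEFF2 (0.956) and THG1L (0.956). TMEFF2, a membrane protein, averaged 48.1 CPM in GFP, 5.84 in WT, 129 in GSTA4 and 13.1 in OSK, a far wider range than that of CDKN2A.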

How the data were processed

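The deposited table holds whole-number counts of reads per gene for the 12 libraries. The submitters' processing notes name STAR 2.7.1a and featureCounts 1.6.2 and list human (GRCh38) and mouse (GRCm38) builds without roles, and libraries were made with a poly(A) kit per the labels. The annotation release and strand setting are not given in the sources used here. The 20014 genes without a name took 0.485% to 0.822% of reads. Coordinates and exon lengths are from GENCODE (GRCh38). The table had 0 columns of other samples.

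Counts were fitted in edgeR 4.0.16 (R 4.3.3, limma 3.58.1) with 1 mean per group over all 12 libraries, TMM scaling and filterByExpr, which kept 15179 genes. The common biological coefficient of variation was 7.91%, with 8 residual degrees of freedom and a prior count of 0.125. SE is the size of a log2 fold change divided by the square root of the F statistic of its quasi-likelihood test. Genes with a Benjamini-Hochberg adjusted p under 0.05 (two-sided) were called. Fold changes against a group at 3 or fewer reads are bounds. DESeq2 1.42.0, other scalings and filters, and fits leaving out each library were alternatives. The members and lists were chosen with earlier results of these data known. Named genes are all members, the 4 other inhibitors, up to 3 called genes with the lowest adjusted p per list and comparison, and 2 nearest patterns per member. Marker levels, TGFBI, TMEFF2 and MKI67 levels and TSPAN31, which shares CDK4 exons, are also given. A few genes that these rules would name are not reported here.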

Additional observations from a re-analysis of the deposited data

How the results depend on the processing

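Counts of called members in GSTA4 against GFP were 4 (29.2% of all genes called) and became 8 with WT in place of GFP as the control (38.6%). Over fits leaving out 1 library they ran from 1 to 4, beside 3459 to 5064 genes called (1 without GSTA4 replicate 3, 2 without GSTA4 replicate 2 or GFP replicate 3). In GFP against WT the count was 5 (22.2%). It was 3 to 5 over those fits (3 without WT replicate 1 or GFP replicate 3), beside 2267 to 3297 genes called, and 3 with the 6 compared libraries alone. Over the fits leaving out 1 library the count was 6 to 7 in OSK against GFP, beside 6188 to 7569 genes called. In OSK against GSTA4 it was 8, beside 6452 to 7727 genes called. The counts of all genes called stayed within 1.5 times under every alternative, and no called member reversed in sign except with WT as the control, an alternative added for single members after seeing the data: in GSTA4, CCND1 went from -0.29 to 0.51 and CDKN2C from -0.55 to 1.76. With library sizes alone, OSK against GFP had 2761 genes higher and 4180 lower, 39.8% higher against 50.4%. Member fold changes moved in 18 values, most of them with WT as the control, and not in 760. CCND2 had 3 or fewer reads in every OSK library, so its fold changes in OSK are given as bounds, while its calls rest on the fit. The per-kilobase shares moved in 15 values and not in 25 when exon bases shared with other genes were left out, also chosen after seeing the data. The replicate block, for numbers that share only a name (18 correlations of same-numbered libraries, -0.0282 to 0.183, 3 over 0.1), gave 4 called members and 4734 called genes in GSTA4 against GFP, 6 and 7269 in OSK against GFP, 5 and 3779 in GFP against WT, and 8 and 7476 in OSK against GSTA4, and 10363 genes called over the 4 groups. List counts in the text that moved by over 1.5 times without 1 library were small ones: pocket protein genes in GSTA4 against GFP (1 without GFP replicate 1 or 2 or GSTA4 replicate 2), E2F targets there (1 without GFP replicate 3 or GSTA4 replicate 1), polycomb genes there (4 without GSTA4 replicate 1 or 2), kinase activators there (3 without GFP replicate 1 or 3), pocket protein genes in GFP against WT (3 without WT replicate 3), polycomb genes there (5 without GFP replicate 2) and cyclin E, cyclin A and CDK2 genes (OSK against GFP, 2 without any 1 GFP library, WT replicate 1, GSTA4 replicate 1 or OSK replicate 1, and GFP against WT, 1 without GFP replicate 2). The cause was not tested.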
